A study of Mus musculus with 17 samples.

Results

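The genes described here encode the B cell survival factors BAFF (Tnfsf13b) and APRIL (Tnfsf13) and their receptors BAFF-R (Tnfrsf13c), TACI (Tnfrsf13b) and BCMA (Tnfrsf17). They were taken by gene symbol from tables of 55491 rows, and all 5 were found in both tables. RNA sequencing had been carried out on 8 libraries of BMDC, dendritic cells derived from mouse bone marrow, and on 9 libraries of B cells from mouse spleen. The cells had been incubated with MSA2, an agonist of the innate immune sensor STING, together with IPI-549, an inhibitor selective for the lipid kinase PI3Kγ (the combination, 2 BMDC and 3 B cell libraries), with MSA2 alone (3 and 3) or without drug (Control, 3 and 3). The genotype label reads WT for every library, whereas the series' design text names KPC mice, a model of pancreatic cancer, as the source of the cells. The treatment label reads Control for every library, so groups were taken from the titles. Dose, incubation time and the age of the mice are not given, no group received IPI-549 alone, and no sorting of the B cells is described. The labels do not say whether replicates came from different mice, so that p-values measure only the spread between these libraries, which may be technical.

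BAFF and APRIL are ligands of the tumour necrosis factor family that are made mainly by myeloid and stromal cells. BAFF-R binds BAFF alone and carries the survival signal of mature B cells through the noncanonical NF-kB pathway, whereas TACI and BCMA bind both ligands. TACI limits B cell numbers and supports class switching and antibody responses without T cell help, and BCMA sustains long-lived plasma cells.

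Total counts ranged from 34760025 to 73166643 in BMDC and from 41093440 to 51433008 in B cells. Levels are in CPM, the count scaled to a library total that was adjusted by TMM within each cell type, with replicates in numerical order, and as mean ± SD. Differences between groups are log2 fold changes ± their standard error (SE). Genes with an adjusted p under 0.05 (Benjamini-Hochberg, over the 14614 genes of BMDC or 16180 genes of B cells that entered edgeR's quasi-likelihood test) are called higher or lower. All 5 genes passed the filter on low counts in B cells, but Tnfsf13b, Tnfsf13 and Tnfrsf17 did so only through the MSA2 libraries. In BMDC 3 of 5 passed, and Tnfrsf13c and Tnfrsf17 were left untested there.

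The labelled cell types were checked against marker genes. In the B cell libraries 12 markers of B cells, among them Ms4a1 and Cd79a, summed to between 8958 and 9696 CPM in the combination, 4474 and 5068 CPM with MSA2 and 8971 and 9541 CPM in Control. All 12 fell with MSA2 against Control, with a median log2 fold change of -0.91. Markers of other cell types were higher in the same MSA2 libraries. The 12 monocyte and macrophage markers summed to 619 to 622 CPM in the combination, 2085 to 2369 CPM with MSA2 and 541 to 646 CPM in Control, and 11 of 12 rose with MSA2 against Control (median log2 fold change 4.39). The 12 neutrophil markers summed to 0.573 to 1.02 CPM in the combination, 1644 to 1715 CPM with MSA2 and 2.38 to 35.2 CPM in Control, and Elane was at 0 in the combination and in Control. The 12 T cell markers summed to 51.3 to 58.4, 1088 to 1387 and 62.6 to 81.4 CPM in the combination, MSA2 and Control, with Bcl11b and Cd3e at 0 in the combination. With MSA2 against Control 12 of 12 neutrophil, 12 of 12 T cell, 9 of 9 NK cell, 8 of 8 erythroid and 7 of 7 mast cell and basophil markers rose. Over all genes tested in B cells, 24.9% were called higher and 18.5% lower in that comparison. In BMDC the 11 dendritic cell markers summed to 1703 to 1749 CPM in the combination, 1511 to 1667 CPM with MSA2 and 1808 to 2056 CPM in Control. Most of that sum was Itgax, while Flt3 averaged 0.946 ± 0.196, 0.652 ± 0.246 and 0.273 ± 0.0347 CPM in the combination, MSA2 and Control. Monocyte and macrophage markers were more abundant in BMDC, at 19466 to 19976, 17200 to 20493 and 21281 to 23463 CPM in the same order of groups. The numbers in the library names are higher for MSA2 than for every other B cell library, and what they stand for is not stated. In B cells anything that goes with these numbers cannot be told apart from MSA2 treatment. In bulk samples fewer cells of a type and less RNA per cell cannot be told apart either.

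The genes lie on 4 chromosomes of the GRCm38 build. Tnfsf13b (ENSMUSG00000031497) spans bases 10006467 to 10039072 of chromosome 8 on the plus strand, and Tnfsf13 (ENSMUSG00000089669) bases 69682846 to 69685784 of chromosome 11 on the minus strand. Tnfrsf13c (ENSMUSG00000068105) spans bases 82221743 to 82224369 of chromosome 15 on the minus strand. Tnfrsf13b (ENSMUSG00000010142) spans bases 61126755 to 61149372 of chromosome 11, and Tnfrsf17 (ENSMUSG00000022496) bases 11313812 to 11320074 of chromosome 16, both on the plus strand. For each of their 6 RefSeq transcript starts, the 250 bases upstream were searched on both strands for the core letters of 3 elements. GAAANNGAAA, the core of the interferon-stimulated response element, was found upstream of a start of Tnfsf13b and of Tnfrsf17, against 2.98% of 32851 promoters of that length. TTCNNNGAA, the core of the interferon gamma-activated site, was in none of the 6 windows and in 7.02% of promoters. GGGNNNNNCC, a loose form of the NF-kB site, was upstream of Tnfsf13, Tnfrsf13c and Tnfrsf13b, but also in 45.8% of promoters. Shown are both matches to the interferon element, because their genes rose with MSA2 in B cells, and the upstream window of Tnfrsf13c, the receptor gene with the lowest log2 fold change there. Capitals mark the matched letters, on the gene's own strand from 5′ to 3′.
Tnfsf13b, chr8:10006603-10006632, plus strand: atcttacaaaaactGAAAGTGAAAtgcgga
Tnfrsf17, chr16:11313698-11313727, plus strand: aaataggtggTTTCTGTTTCaggaatagtt
Tnfrsf13c, chr15:82224381-82224630, minus strand: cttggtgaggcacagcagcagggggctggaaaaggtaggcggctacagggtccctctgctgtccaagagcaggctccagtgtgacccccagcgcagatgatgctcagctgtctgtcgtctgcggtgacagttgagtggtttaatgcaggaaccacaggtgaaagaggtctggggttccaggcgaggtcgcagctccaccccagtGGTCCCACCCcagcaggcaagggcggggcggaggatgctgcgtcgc
The sequences are RefSeq's, on GRCm38.p6. The Tnfsf13b match belongs to the second of its annotated starts and begins 16 bases before it, inside the first exon of the longer transcript. The Tnfrsf17 match is on the opposite strand and begins 101 bases before the start. The Tnfrsf13c window ends at the start and holds the loose NF-kB letters on the opposite strand, beginning 46 bases before it. A match of letters is a description of the window and not of binding.

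Without drug, both ligand genes were higher in BMDC, and the receptor genes Tnfrsf13c and Tnfrsf13b were higher in B cells. In a fit of all 17 libraries and 17740 genes, Tnfsf13b was higher in Control BMDC than in Control B cells by a log2 fold change of 4.14 ± 0.25 (adjusted p = 2.60e-11) and Tnfsf13 by 8.94 ± 0.29 (adjusted p = 3.23e-15). Tnfrsf13c was lower in Control BMDC, at a log2 fold change of -9.36 ± 0.21 (adjusted p = 1.61e-17), and Tnfrsf13b at -1.11 ± 0.10 (adjusted p = 1.10e-08). Between these cell types 39.3% of genes tested were higher in BMDC and 40.6% were lower, so that a difference was the common case. Tnfrsf17 was also lower in Control BMDC (log2 fold change -2.33 ± 0.88, adjusted p = 0.0231), from 4 counts in BMDC against 28 in B cells. This call was lost without B cell Control replicate 3 (-1.77, adjusted p = 0.107), BMDC Control replicate 2 (-1.67, adjusted p = 0.103) or BMDC Control replicate 3 (-1.83, adjusted p = 0.0788). The tables were scaled separately for CPM, so that CPM is not set across cell types in a test. The library names of BMDC and of B cells also begin with different numbers, and what these stand for is not stated. Anything that goes with them cannot be told apart from cell type, in these levels or in the differences in response given below.

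Per kilobase of exon, the highest ligand in BMDC was Tnfsf13, at 20.6 ± 0.0708 CPM per kilobase in the combination (n = 2), 20.7 ± 3.19 with MSA2 and 22.6 ± 1.98 in Control (n = 3 each). Tnfsf13b was far lower on that scale, at 0.435 ± 0.00228, 0.569 ± 0.0441 and 0.379 ± 0.0446 CPM per kilobase in the same groups. In Control B cells Tnfrsf13c stood at 70.3 ± 9.53 and Tnfrsf13b at 59.0 ± 4.60 CPM per kilobase (n = 3), with overlapping ranges across libraries. In CPM, without division by length, Tnfrsf13b was above Tnfrsf13c in every Control B cell library, so their order in Control depends on the exon lengths used. Per kilobase, the order of these receptors was the other way round in the treated B cells. Tnfrsf13b had 68.4 ± 1.62 and Tnfrsf13c 49.0 ± 5.59 CPM per kilobase in the combination, and with MSA2 they had 39.4 ± 4.14 and 18.7 ± 1.26 (n = 3 each), with no overlap between the genes in either group. Tnfrsf17 and both ligands were at or below 4.35 CPM per kilobase in every B cell library.

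**Figure D1:**
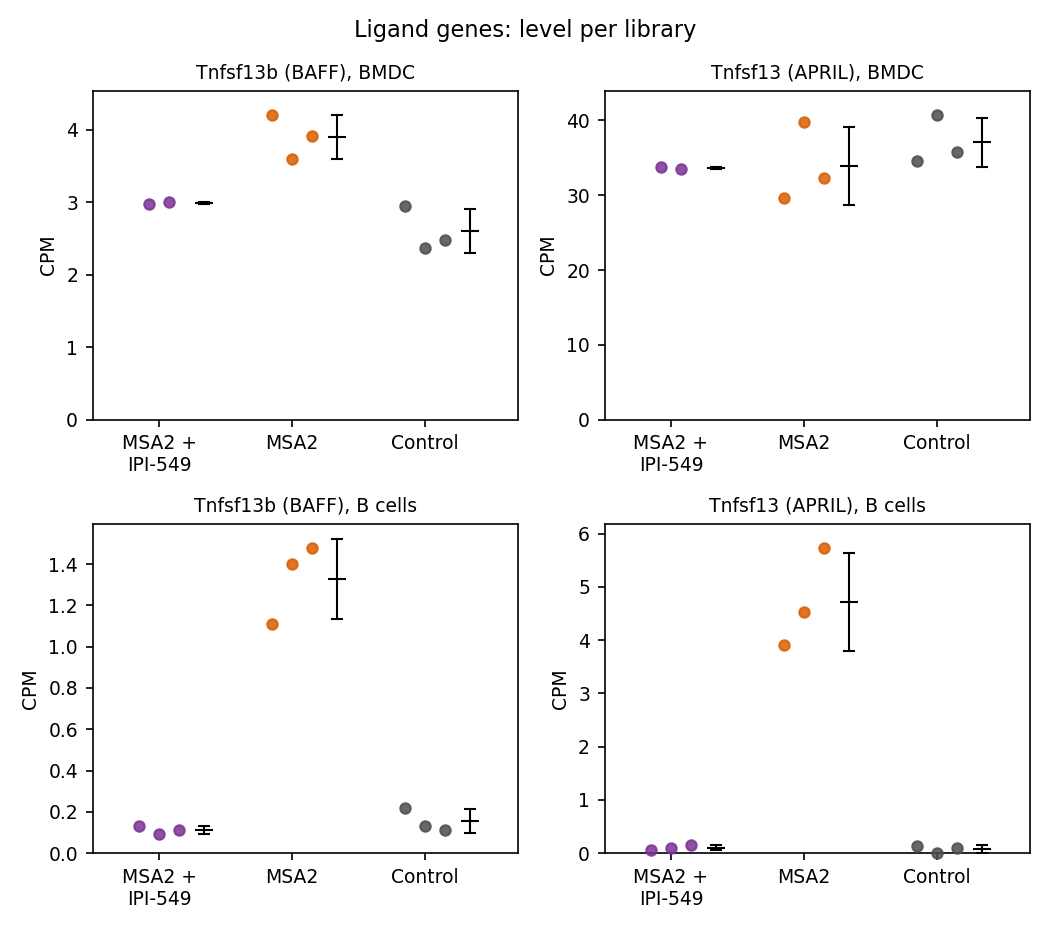
Level of the ligand genes Tnfsf13b and Tnfsf13 in CPM (vertical axis, linear, own scale per panel) in each library, BMDC above and B cells below, by group; dots are libraries, and bars are mean ± SD. In B cells the MSA2 libraries lie between 1.11 and 1.48 CPM for Tnfsf13b and between 3.91 and 5.72 CPM for Tnfsf13, above every other B cell library.

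Of the ligands, Tnfsf13b rose with MSA2 in both cell types, while Tnfsf13 rose in B cells and was not called in BMDC. In BMDC, Tnfsf13b was measured at 2.98 and 3.0 CPM in the combination, 4.21, 3.60 and 3.91 CPM with MSA2 and 2.95, 2.38 and 2.48 CPM in Control. The MSA2 libraries lay above all others, and the combination libraries lay just above the highest Control library. MSA2 exceeded Control by a log2 fold change of 0.58 ± 0.14 (adjusted p = 0.00940), in a comparison in which 14.6% of genes were called higher and 13.5% lower. The combination was not called against Control (0.20 ± 0.16, adjusted p = 0.488; 7.51% of genes called higher and 5.38% lower) or against MSA2 (-0.38 ± 0.16, adjusted p = 0.411). In that last comparison edgeR called 0 of 14614 genes (0%), 1594 had an unadjusted p under 0.05, and DESeq2 called 162 genes.

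In BMDC, Tnfsf13 had 33.7 and 33.6 CPM in the combination, 29.7, 39.8 and 32.4 CPM with MSA2 and 34.6, 40.7 and 35.8 CPM in Control. MSA2 and Control overlapped, and the deepest library, MSA2 replicate 2, was the highest of its group. The log2 fold changes were -0.12 ± 0.10 for MSA2 against Control (adjusted p = 0.426), -0.14 ± 0.12 for the combination against Control (adjusted p = 0.516) and -0.02 ± 0.12 for the combination against MSA2 (adjusted p = 0.979). Without MSA2 replicate 2 the first of these was -0.25, with an adjusted p of 0.0494.

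In B cells, Tnfsf13b had 0.130, 0.0916 and 0.110 CPM in the combination, 1.11, 1.40 and 1.48 CPM with MSA2 and 0.220, 0.131 and 0.112 CPM in Control. The MSA2 libraries stood apart, on 180 counts in all, while the combination held 15 counts, Control held 22, and those groups overlapped. Tnfsf13b rose with MSA2 against Control by a log2 fold change of 3.07 ± 0.33 (adjusted p = 1.78e-05), where 24.9% of genes were called higher and 18.5% lower. In the combination it fell against MSA2 (-3.55 ± 0.35, adjusted p = 8.78e-06, with 14.1% of genes called higher and 22.9% lower) and was not called against Control (-0.48 ± 0.42, adjusted p = 0.784, with 1.06% called in either direction).

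In B cells, Tnfsf13 had 0.0649, 0.0916 and 0.154 CPM in the combination, 3.91, 4.53 and 5.72 CPM with MSA2 and 0.140, 0 and 0.0899 CPM in Control. Again the MSA2 libraries stood apart, and the combination and Control overlapped at 14 and 11 counts in all. Tnfsf13 rose with MSA2 against Control by 5.87 ± 0.47 (adjusted p = 1.73e-06). It fell in the combination against MSA2 (-5.47 ± 0.46, adjusted p = 2.34e-06) and was not called in the combination against Control (0.39 ± 0.72, adjusted p = 0.908).

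The value of Tnfsf13 itself is uncertain, because its exons share reads with neighbouring genes. Of its 1637 exon bases, 983 (60.05%) also belong to Tnfsfm13, the read-through transcript that joins Tnfsf12 and Tnfsf13, and 221 (13.5%) overlap the antisense gene Tnfsf13os. The strand of the libraries is not stated. As a locus, Tnfsf12, which encodes the cytokine TWEAK, Tnfsfm13 and Tnfsf13 summed to 117 ± 5.46 CPM in the combination (n = 2), 109 ± 2.44 CPM with MSA2 and 123 ± 3.68 CPM in Control (n = 3 each) in BMDC. In B cells the locus held 0.163 ± 0.0482 CPM in the combination, 10.9 ± 1.55 CPM with MSA2 and 0.196 ± 0.0954 CPM in Control (n = 3 each). In B cells the locus, like Tnfsf13 counted alone, was highest with MSA2.

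The ligands rose in the same MSA2-treated B cell libraries as the monocyte and macrophage, neutrophil, T cell, NK cell, erythroid and mast cell and basophil markers given above. The 11 dendritic cell markers summed to 59.1 to 63.8 CPM in the combination, 150 to 170 CPM with MSA2 and 54.4 to 66.2 CPM in Control there, and 9 of 11 rose with MSA2 against Control. In that comparison 24.9% of all genes tested were called higher and 18.5% lower. The part of any of these cells in the result was not tested. Summed interferon-stimulated genes (13 genes) lay at 1785 to 2277 CPM in the combination, 1765 to 2266 CPM with MSA2 and 385 to 387 CPM in Control B cells. In BMDC the same genes summed to 5004 to 6336 CPM in the combination, 7029 to 10091 CPM with MSA2 and 302 to 397 CPM in Control.

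**Figure D2:**
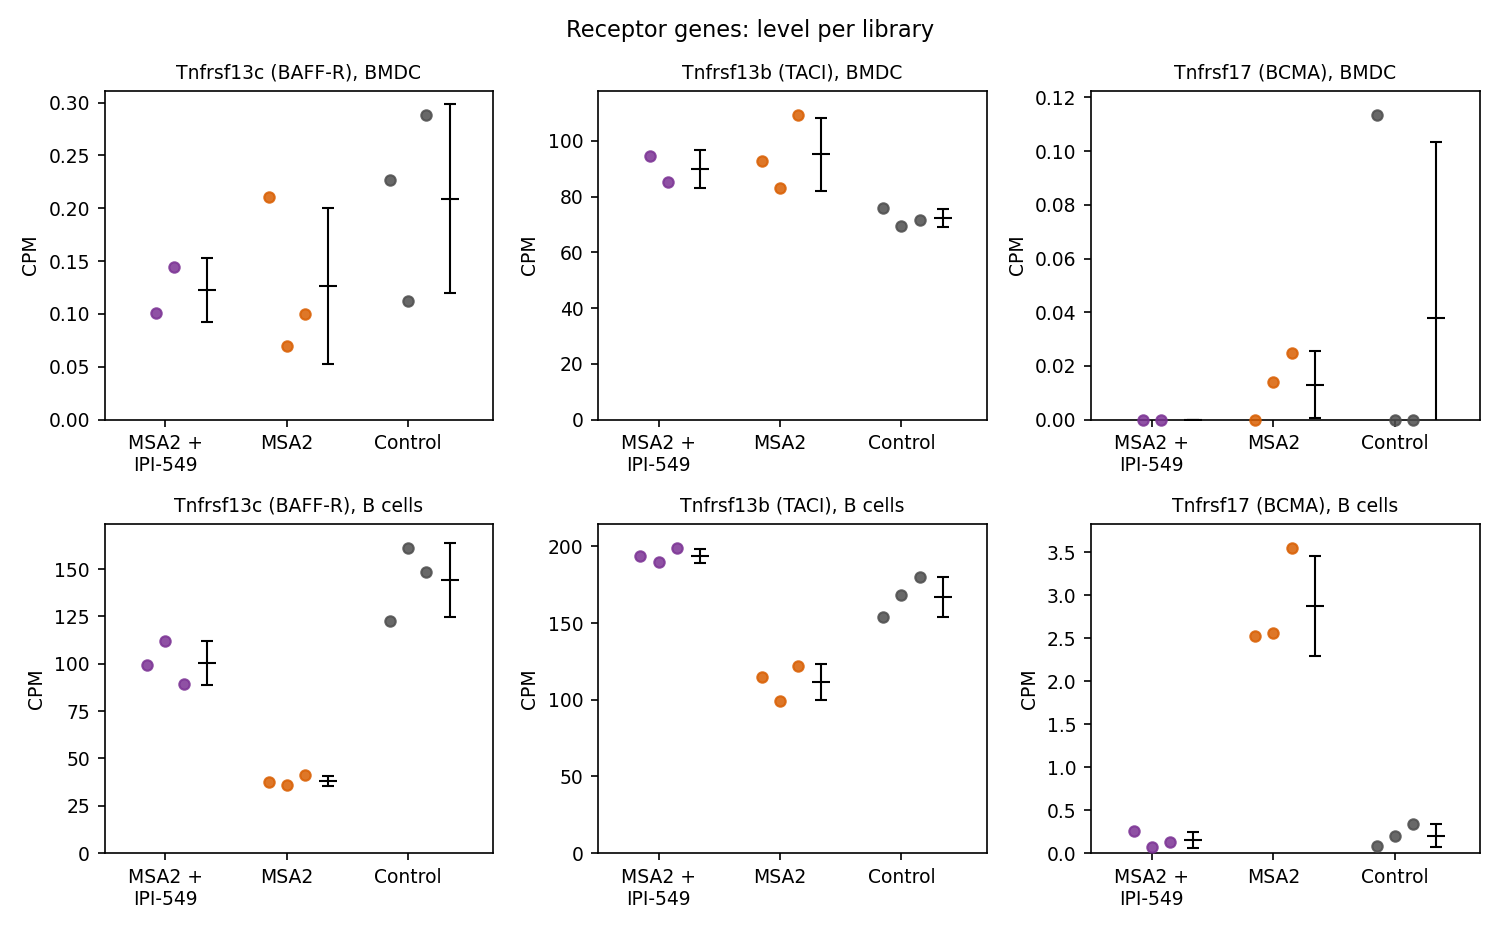
Level of the receptor genes Tnfrsf13c, Tnfrsf13b and Tnfrsf17 in CPM (vertical axis, linear, own scale per panel) in each library, BMDC above and B cells below, by group; dots are libraries, and bars are mean ± SD. In B cells the MSA2 libraries are the lowest for Tnfrsf13c and Tnfrsf13b and the highest for Tnfrsf17, and in BMDC Tnfrsf13c and Tnfrsf17 rest on at most 10 counts per library.

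Among the receptors, Tnfrsf13c, the receptor specific to BAFF, fell with MSA2 in B cells. It had 99.6, 112 and 89.4 CPM in the combination, 37.5, 36.2 and 41.2 CPM with MSA2 and 123, 161 and 149 CPM in Control. No groups overlapped, with MSA2 lowest, the combination between and Control highest. MSA2 against Control gave a log2 fold change of -1.91 ± 0.12 (adjusted p = 1.91e-07) and ranked 31 by size among the 2994 genes called lower. In the combination Tnfrsf13c rose against MSA2 by 1.39 ± 0.11 (adjusted p = 2.23e-06). Against Control it was at -0.52 ± 0.11, with an adjusted p of 0.0608 that missed the threshold. That value passed without a filter on low counts (-0.51, adjusted p = 0.00956), in DESeq2 (-0.51, adjusted p = 0.00289), with the title suffix as a replicate block (-0.52, adjusted p = 0.0488) and without Control replicate 1 (-0.63, adjusted p = 0.0227).

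In BMDC, Tnfrsf13c had 4 and 5 counts in the combination libraries, 8, 5 and 4 with MSA2 and 8, 5 and 10 in Control. All libraries were at or below 0.288 CPM, the groups overlapped and no test was made.

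Tnfrsf13b, which encodes TACI, fell in CPM with MSA2 in B cells and rose with MSA2 in BMDC. In BMDC it had 94.8 and 85.2 CPM in the combination, 93.0, 83.3 and 109 CPM with MSA2 and 75.8, 69.3 and 71.8 CPM in Control. Both treated groups lay above every Control library and overlapped each other. The log2 fold change was 0.40 ± 0.09 for MSA2 against Control (adjusted p = 0.00819). For the combination it was 0.32 ± 0.10 against Control (adjusted p = 0.0704) and -0.08 ± 0.10 against MSA2 (adjusted p = 0.830). The combination passed against Control without a filter on low counts (0.31, adjusted p = 0.00377), in DESeq2 (0.31, adjusted p = 0.0406), with the replicate block (0.36, adjusted p = 0.0319), in a fit of the compared groups alone (0.31, adjusted p = 0.0161) and without MSA2 replicate 2 (0.32, adjusted p = 0.0264) or replicate 3 (0.32, adjusted p = 0.0306).

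In B cells, Tnfrsf13b had 194, 190 and 199 CPM in the combination, 115, 98.9 and 122 CPM with MSA2 and 154, 168 and 180 CPM in Control. The groups did not overlap, and here the combination was highest. The log2 fold changes were -0.58 ± 0.09 for MSA2 against Control (adjusted p = 0.000321) and 0.79 ± 0.09 for the combination against MSA2 (adjusted p = 3.02e-05). The combination was not called against Control (0.21 ± 0.09, adjusted p = 0.474). The response to MSA2 differed between BMDC and B cells by 0.99 ± 0.14 on the log2 scale (adjusted p = 2.14e-05), with a rise in BMDC and a fall in B cells, both in CPM. In that test 16.3% of genes had a more positive response in BMDC and 20.7% a more negative one. Relative to the B cell markers, which fell in the same MSA2 libraries, Tnfrsf13b rose in B cells (log2 difference 0.36, given below).

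Tnfrsf17, which encodes BCMA, rose with MSA2 in B cells from a low level. It had 0.260, 0.0687 and 0.132 CPM in the combination, 2.52, 2.56 and 3.54 CPM with MSA2 and 0.0799, 0.197 and 0.337 CPM in Control. The MSA2 libraries held 389 counts and stood apart from the combination (21 counts) and Control (28 counts), which overlapped. The log2 fold change was 3.82 ± 0.44 for MSA2 against Control (adjusted p = 3.15e-05), -4.19 ± 0.46 for the combination against MSA2 (adjusted p = 2.12e-05) and -0.37 ± 0.57 for the combination against Control (adjusted p = 0.887). In BMDC there were 0 and 0 counts in the combination, 0, 1 and 1 with MSA2 and 4, 0 and 0 in Control, and no test was made.

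Plasma cells are the main site of BCMA, so their markers are given beside this result. The 8 plasma cell markers summed to 1391 to 1659 CPM in the combination, 2244 to 2567 CPM with MSA2 and 1522 to 1845 CPM in Control B cells, with no marker at 0. With MSA2 against Control 5 of 8 rose and 2 of 8 fell, where 24.9% of all genes tested rose and 18.5% fell. Jchain, which joins polymeric antibodies, averaged 214 ± 39.0 CPM in the combination, 1345 ± 227 CPM with MSA2 and 289 ± 45.1 CPM in Control. Without Jchain, the mean sum of the other plasma cell markers was lower with MSA2 than in the combination and in Control. The part of plasma cells in the result was not tested.

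**Figure D3:**
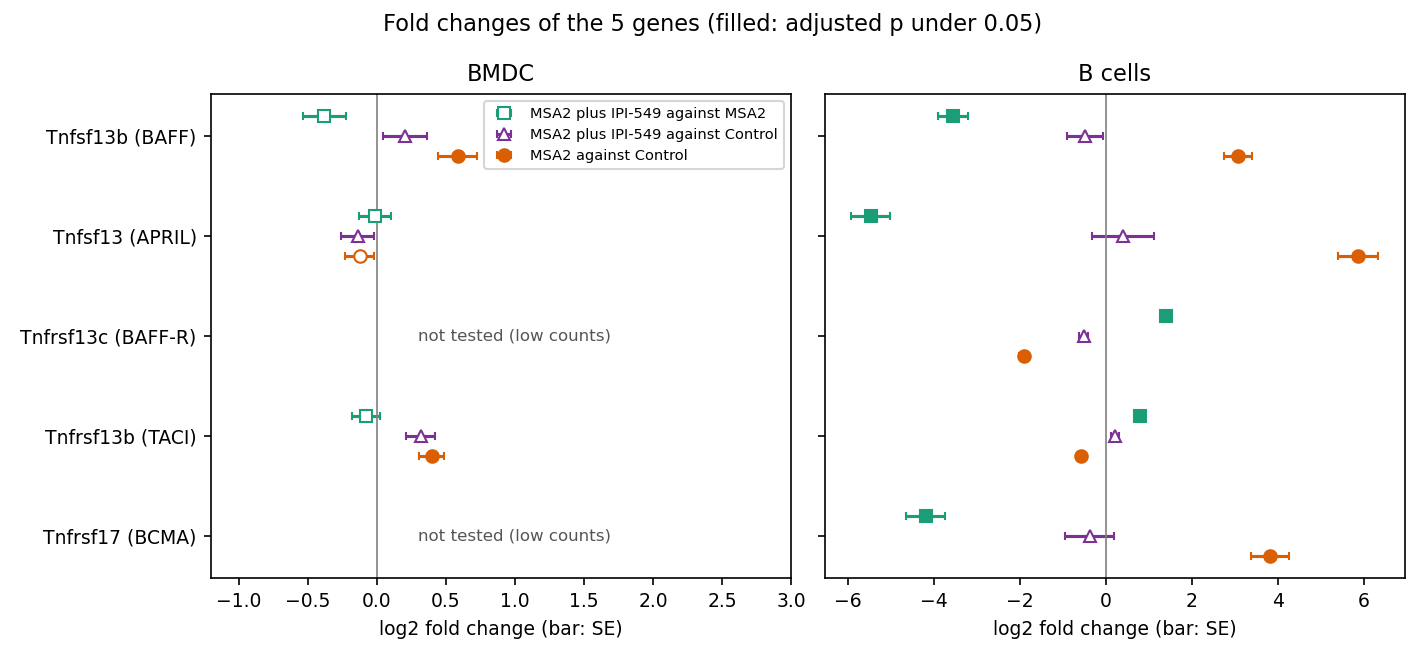
Log2 fold change (horizontal axis, own scale per panel) of each of the 5 genes with its SE, in BMDC (left) and B cells (right), for the 3 comparisons between groups; filled symbols passed an adjusted p of 0.05 in edgeR. In B cells all 5 genes are called with MSA2 against Control and, with the opposite sign, in the combination against MSA2, and none in the combination against Control. Those comparisons share libraries, and Tnfsf13b, Tnfsf13 and Tnfrsf17 passed the filter in B cells only through the MSA2 libraries.

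All 5 genes were called in B cells with MSA2 against Control, 3 higher and 2 lower, where the shares over all genes tested were 24.9% and 18.5%. The 3 called higher, Tnfsf13b, Tnfsf13 and Tnfrsf17, passed the filter on low counts only through the MSA2 libraries, where they were high. Nothing is therefore drawn from the count of 5. The combination against MSA2 called 2 higher and 3 lower, where 14.1% and 22.9% of all genes were called. The combination against Control called 0 of 5 in edgeR, with 2 at an unadjusted p under 0.05 and 1 called by DESeq2. Over all genes that comparison called 1.06%, so that 0 of 5 is near the background. In both of its groups Tnfsf13b, Tnfsf13 and Tnfrsf17 held at most 15 counts per library. These comparisons share groups of libraries and are not independent of each other. For the combination, the difference in response between BMDC and B cells was called by edgeR for 0 of the 3 genes that passed the filter in both cell types (0 at an unadjusted p under 0.05 and 0 in DESeq2) and for 3.04% of all genes.

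Because the B cell markers also fell with MSA2, each gene was set against their sum within each library. Per 1000 counts of the 12 B cell markers, Tnfrsf13c had 10.9, 12.5 and 9.22 counts in the combination, 7.72, 8.09 and 8.13 with MSA2 and 13.3, 17.9 and 15.6 in Control. The groups kept their order and did not overlap. The log2 difference was -0.96 for MSA2 against Control, -0.52 for the combination against Control and 0.43 for the combination against MSA2. Each had a two-sided exact permutation p of 0.1, the smallest that 3 against 3 libraries allow.

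Tnfrsf13b took the opposite direction on that scale. It averaged 20.9 ± 0.364 counts per 1000 B cell marker counts in the combination, 23.3 ± 1.03 with MSA2 and 18.1 ± 1.19 in Control (n = 3 each). The groups did not overlap, and the log2 differences were 0.36 for MSA2 against Control, 0.21 for the combination against Control and -0.15 for the combination against MSA2 (exact permutation p = 0.1 for each, again the smallest possible). The fall of Tnfrsf13b in CPM with MSA2 was therefore smaller than that of the B cell markers, and the fall of Tnfrsf13c was larger. For Tnfrsf17 and both ligands the log2 differences with MSA2 against Control were 4.88 (Tnfrsf17), 4.01 (Tnfsf13b) and 7.36 (Tnfsf13), with the same exact permutation p of 0.1. These genes rose in CPM while the markers fell, so a higher ratio had to follow and adds nothing to the rise in CPM.

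A direct ratio of both receptors within a library needs no scaling to other genes. Tnfrsf13b over Tnfrsf13c, in counts per exon length, was 1.40, 1.22 and 1.61 in the combination, 2.21, 1.97 and 2.14 with MSA2 and 0.906, 0.754 and 0.875 in Control. On this scale TACI was ahead of BAFF-R in all 6 treated libraries and in none of the 3 Control libraries. Before division by exon length (2836 and 2048 bases), counts of Tnfrsf13b exceeded those of Tnfrsf13c in Control too (7705 against 6139, 7684 against 7360 and 8006 against 6606). Which receptor is ahead in Control therefore depends on the lengths used, while the differences between groups do not. The log2 difference was 1.32 for MSA2 against Control, 0.73 for the combination against Control and -0.59 for the combination against MSA2, each with an exact permutation p of 0.1, the smallest possible. This ratio was chosen after the values were seen. In BMDC Tnfrsf13b was measured at 69.3 CPM or more, and Tnfrsf13c at no more than 0.288 CPM. Markers of other cells were higher in the MSA2 B cell libraries, and the part of such cells in this ratio and in those to B cell markers was not tested.

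**Figure D4:**
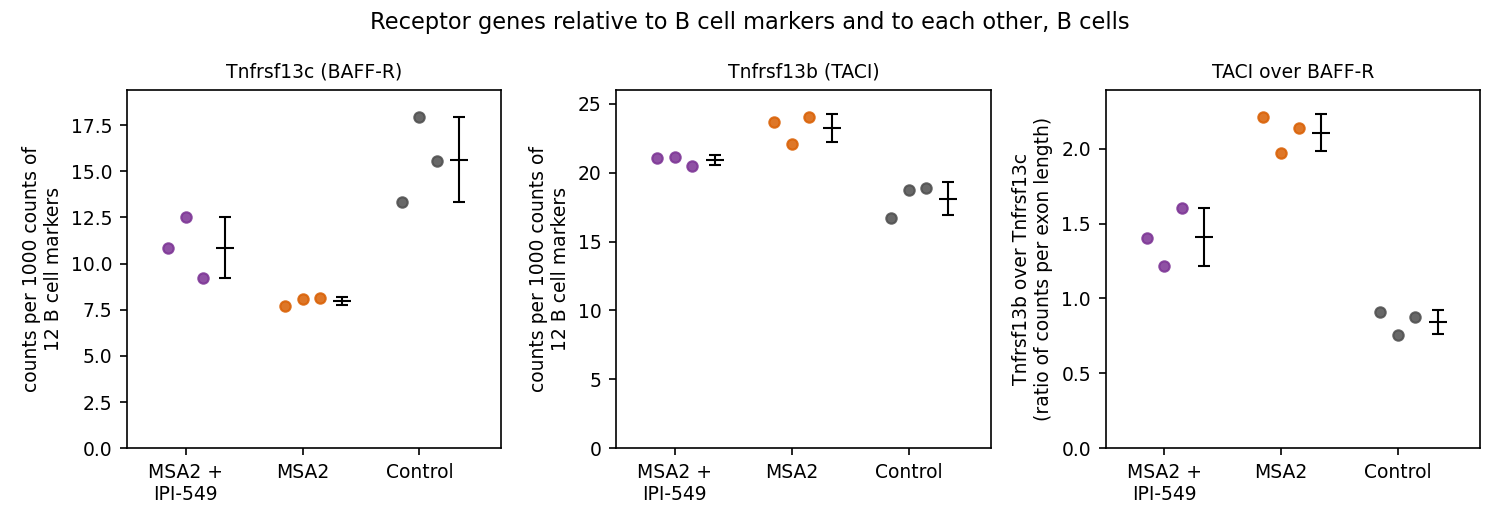
B cell libraries by group: counts of Tnfrsf13c (left) and Tnfrsf13b (middle) per 1000 counts of 12 B cell markers, and the ratio of Tnfrsf13b to Tnfrsf13c per exon length (right), on linear axes from 0; dots are libraries, and bars are mean ± SD. Relative to the markers, Tnfrsf13c is lowest and Tnfrsf13b highest with MSA2, and their ratio is at least 1.22 in every treated library and at most 0.906 in every Control library.

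Genes that act with these ligands and receptors were followed in 6 lists, of which 46 of 47 genes were in the tables. In B cells 11 of 46 rose and 18 fell with MSA2 against Control, where 24.9% of all genes tested rose and 18.5% fell. The count that rose is near that background. The median log2 fold change was -0.14, against -0.01 for all genes tested. Of the 9 receptor-proximal adaptors, which link the receptors to NF-kB, 7 fell and Myd88 rose. Birc3, a ubiquitin ligase that holds the kinase NIK in check, averaged 427 ± 4.23 CPM in the combination, 282 ± 10.3 CPM with MSA2 and 443 ± 3.86 CPM in Control (n = 3 each). It fell with MSA2 against Control by a log2 fold change of -0.65 ± 0.07 (adjusted p = 1.50e-05). The adaptors Traf2 (-0.61 ± 0.09, adjusted p = 0.000326) and Traf5 (-0.47 ± 0.09, adjusted p = 0.00154) fell in the same comparison.

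In the NF-kB arm 2 of 10 genes rose and 4 fell in B cells with MSA2, beside the same shares of 24.9% and 18.5% over all genes. Map3k14, which encodes NIK, the kinase at the head of the noncanonical pathway, rose by 1.03 ± 0.14 (adjusted p = 0.000126), and Nfkbia, the inhibitor IkBα, by 1.12 ± 0.24 (adjusted p = 0.00306). Rel fell by 0.72 ± 0.11 on the log2 scale (adjusted p = 0.000343). Among 11 survival and BAFF-dependent genes 2 rose and 4 fell. Fcer2a, the low-affinity IgE receptor CD23 of follicular B cells, averaged 495 ± 26.7 CPM in the combination, 234 ± 15.9 CPM with MSA2 and 487 ± 32.7 CPM in Control, and its log2 fold change with MSA2 against Control was -1.06 ± 0.09 (adjusted p = 2.06e-06). These falls, and those of the adaptors, accompanied that of the 12 B cell markers, and the rises accompanied those of markers of other cells. The part of either shift was not tested. Bcl2a1a rose (2.0 ± 0.17, adjusted p = 2.77e-06), but it has near-identical paralogs whose reads RSEM divides, so that its value is uncertain.

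Of the genes linked to PI3K and the B cell receptor, Btk (-0.80 ± 0.07, adjusted p = 2.96e-06) and Syk (-0.66 ± 0.09, adjusted p = 0.000112), both kinases of B cell receptor signalling, fell with MSA2 in B cells. Pik3r1, a regulatory subunit of PI3K, rose by 0.82 ± 0.08 (adjusted p = 8.86e-06). These changes, and those given next for MSA2, came in B cell libraries where B cell markers fell and markers of other cells rose. The part of that shift in them was not tested. Of the ligand partners, Furin, the protease that releases BAFF and APRIL, rose by 0.39 ± 0.10 (adjusted p = 0.00676), and Tnfsf12 (6.79 ± 0.61, adjusted p = 4.44e-06) and Tnfsfm13 (4.83 ± 0.41, adjusted p = 2.71e-06) rose with Tnfsf13 at their shared locus. Of 7 genes for the shedding of the receptors, Ncstn rose (0.23 ± 0.07, adjusted p = 0.0180) and Psenen fell (-0.49 ± 0.11, adjusted p = 0.00354), both subunits of γ-secretase. Over all genes tested 24.9% rose and 18.5% fell, so these counts do not exceed the background. In the combination edgeR called 0 of 46 genes against Control, with 6 at an unadjusted p under 0.05 and 1 called by DESeq2, in a comparison that called 1.06% of all genes. Against MSA2 19 rose and 9 fell, where 14.1% of all genes rose and 22.9% fell.

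In BMDC 15 of 44 tested pathway genes rose and 8 fell with MSA2 against Control, where 14.6% of all genes tested rose and 13.5% fell. The count that fell is near that background. The median log2 fold change was 0.07, against -0.01 for all genes tested. The NF-kB arm had 7 of 10 genes higher and 1 lower. Nfkbia had 353 ± 19.3 CPM in the combination (n = 2), 367 ± 36.1 CPM with MSA2 and 60.7 ± 5.34 CPM in Control (n = 3 each), a log2 fold change of 2.59 ± 0.09 with MSA2 (adjusted p = 1.70e-08). Rel rose by 1.91 ± 0.11 (adjusted p = 2.67e-07) and Relb, the partner of the noncanonical subunit p52, by 0.72 ± 0.10 (adjusted p = 0.000293). The gene that fell was Map3k14, at 49.4 ± 1.28 CPM in the combination, 42.0 ± 1.66 CPM with MSA2 and 57.0 ± 2.84 CPM in Control.

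Among the adaptors in BMDC 4 of 9 rose and 1 fell with MSA2, beside shares of 14.6% and 13.5% over all genes. Among those that rose were Traf1 at 0.67 ± 0.08 (adjusted p = 6.85e-05), Traf6 at 0.51 ± 0.06 (adjusted p = 0.000124) and Traf3 at 0.48 ± 0.07 (adjusted p = 0.000598). Icosl, the costimulatory ligand of ICOS, fell by 1.54 ± 0.11 (adjusted p = 2.36e-06), and the survival gene Mcl1 fell by 0.70 ± 0.10 (adjusted p = 0.000429). Sdc1, a heparan sulfate proteoglycan that binds APRIL, fell by 0.79 ± 0.06 (adjusted p = 4.50e-06). Of the 7 shedding genes edgeR called 0, with 2 at an unadjusted p under 0.05 and 0 called by DESeq2. In the combination against Control 14 genes rose and 6 fell, where 7.51% of all genes rose and 5.38% fell. Against MSA2 edgeR called 0 of 44, and 0% of all genes, with 6 at an unadjusted p under 0.05 and 0 called by DESeq2.

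The response to MSA2 was called more positive in BMDC than in B cells for 19 of 46 pathway genes and more negative for 10. Over all genes tested those shares were 16.3% and 20.7%. The B cell side of each difference rests on the MSA2 libraries in which B cell markers fell and markers of other cells rose. The part of that shift in the differences was not tested. In BMDC the log2 fold change of Rel was more positive by 2.64 ± 0.16 (adjusted p = 4.10e-10), that of Birc3 by 0.93 ± 0.11 (adjusted p = 1.91e-06) and that of Traf3 by 0.72 ± 0.10 (adjusted p = 1.35e-05). Map3k14 differed in the other direction, at -1.46 ± 0.17 (adjusted p = 2.44e-06), as did Tnfsf12 (-6.99 ± 0.42, adjusted p = 2.82e-10) and Tnfsfm13 (-4.97 ± 0.30, adjusted p = 2.24e-10).

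**Figure D5:**
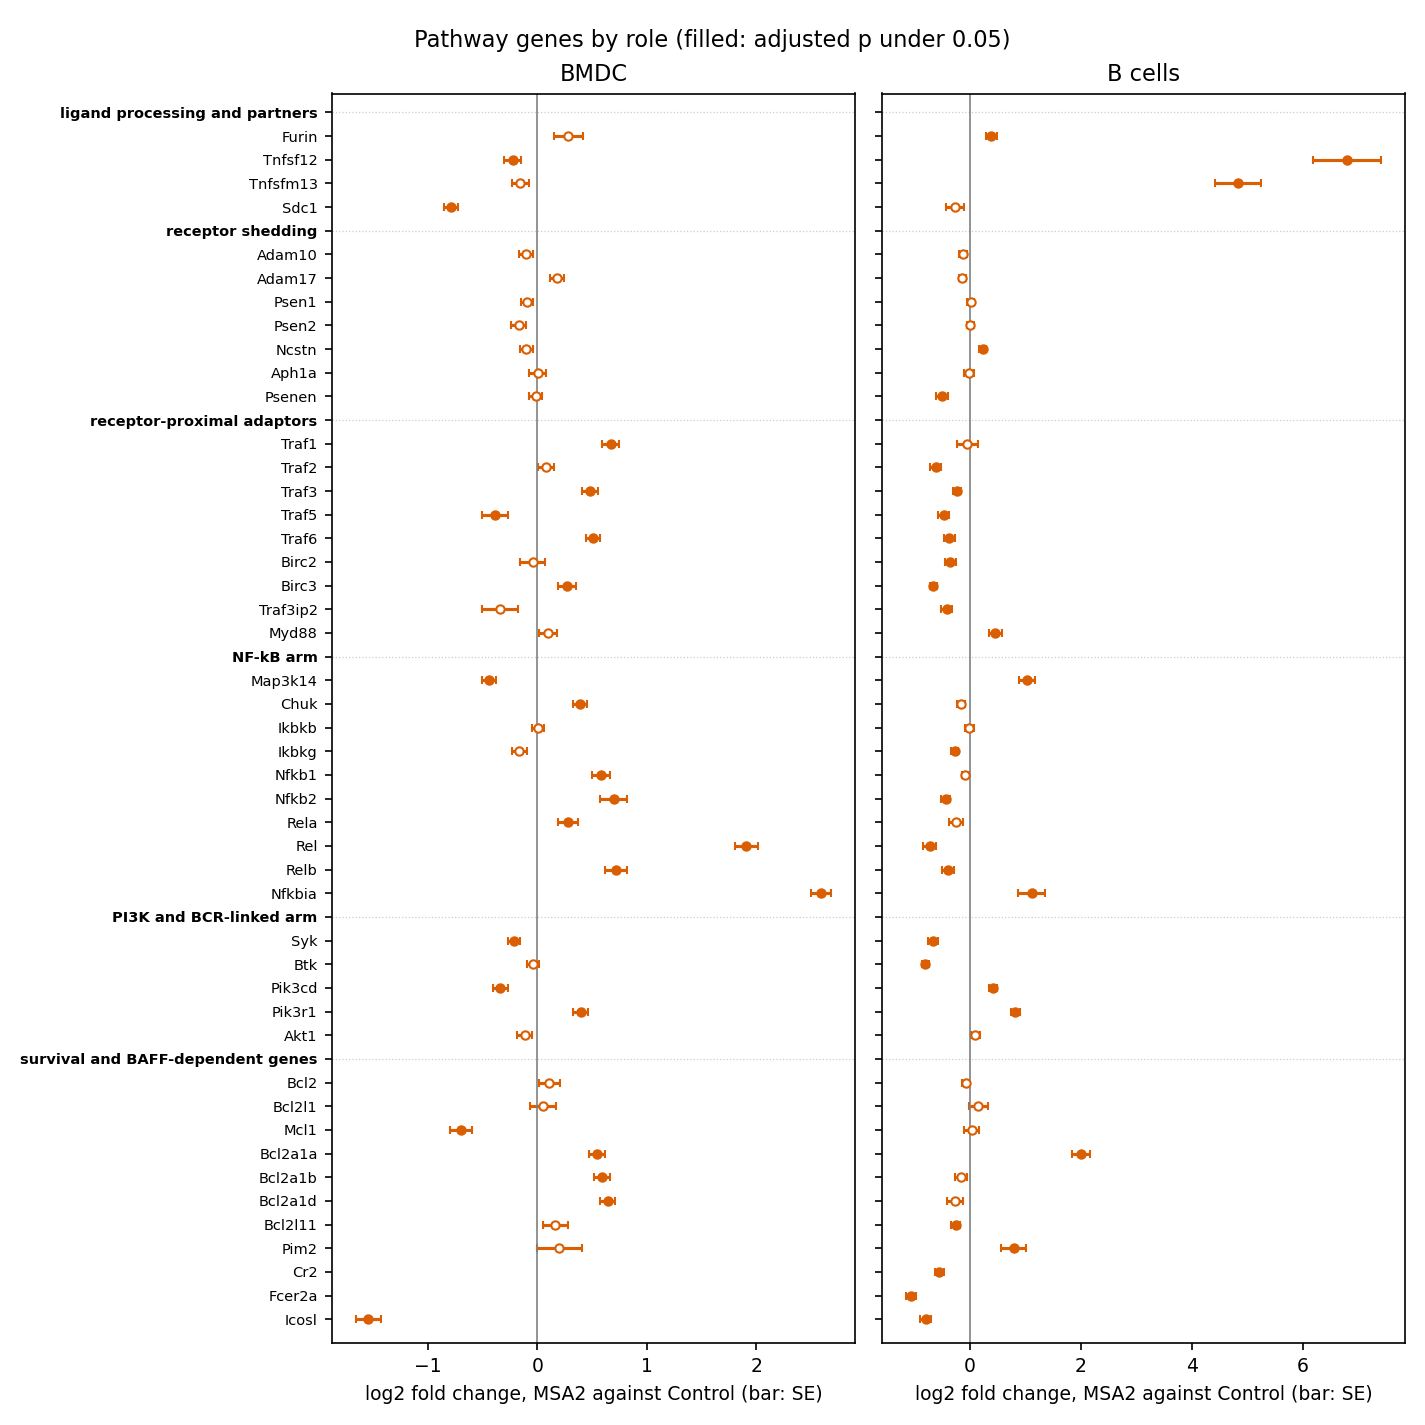
Log2 fold change with MSA2 against Control (horizontal axis, own scale per panel) and its SE for 46 pathway genes grouped by role, in BMDC (left, 44 genes tested) and B cells (right); filled circles passed an adjusted p of 0.05 in edgeR. The adaptors lie mostly below 0 in B cells (7 of 9 called lower, beside 18.5% of all genes). The NF-kB arm lies mostly above 0 in BMDC (7 of 10 called higher, beside 14.6% of all genes).

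Patterns across libraries were compared by Pearson's r of log2 CPM, as a description over libraries that share groups and, in B cells, the MSA2 shift in markers. Over the 9 B cell libraries, Tnfsf13b was most like Csf1r (r = 0.996), the receptor for macrophage colony-stimulating factor, Spic (0.996) and Atp2b4 (0.995), out of 9378 genes. Tnfsf13 was most like C1qa (0.992), a complement subunit made by macrophages, Ift80 (0.991) and Tiam1 (0.991). Tnfrsf17 was most like Ifi205 (0.996), Rab3d (0.992) and Tmem164 (0.991). For Tnfrsf13c these were Rnf41 (0.996), Anapc15 (0.995) and Zc3h10 (0.988), and for Tnfrsf13b they were Gopc (0.995), Stau2 (0.990) and Slc25a25 (0.990). An r of at least 0.95 was shared with 685 genes by Tnfsf13b, 630 by Tnfsf13, 358 by Tnfrsf17, 174 by Tnfrsf13c and 158 by Tnfrsf13b. Over the 8 BMDC libraries, the most like were Arid4a (0.986), Kat2b (0.982) and Seh1l (0.967) for Tnfsf13b, Gcsh (0.976), Parl (0.963) and Cd9 (0.960) for Tnfsf13, and Hivep1 (0.985), Rc3h1 (0.975) and B4galt6 (0.970) for Tnfrsf13b, with 14, 6 and 15 genes at an r of at least 0.95.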

How the data were processed

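Expected counts were deposited by the authors as 1 table of genes per cell type, for 17 libraries in all. Per the submitters' processing notes, the tools were FastQC 0.11.8, cutadapt 4.8, STAR 2.7.8a, RSEM 1.3.3 and MultiQC 1.20, and the build was GRCm38. RSEM divides reads that match several genes. The expected counts were rounded to whole numbers before use. Strand and annotation release are not given in the sources used here. Of 55491 rows, 4 carry no mouse gene ID and hold at most 0.01067% of a library, and 55227 (99.52%) matched GENCODE M21, which gave positions and exon lengths.

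The 3 groups of each cell type were fitted in edgeR 4.0.16 (R 4.3.3) with TMM factors, filterByExpr and the quasi-likelihood F test. A fit of all 6 groups compared the cell types and their responses. The SE is the absolute log2 fold change over the square root of F. Ratios to B cell markers used a pseudocount of 0.5 counts and exact permutation tests. The fits were tested on simulated data. The 5 genes and all lists were chosen with earlier results of these data known. Named were the 5 genes, up to 3 called genes per pathway list with the largest fold change in a comparison, the 3 genes most like each of the 5 among those with a mean of at least 5 CPM (prior count 2), and markers at 0 or most abundant. Other names, such as Ms4a1, Cd79a, Flt3, Jchain and the lone genes of a count, were picked with their values in view. The alternatives tried were DESeq2 1.42.0, RLE or upper quartile factors, no filter, a filter of 1 CPM in 3 libraries, only the groups compared, a block for the title suffix, and each library left out in turn. Same-numbered B cell libraries of the combination and MSA2 deviated together from their group means (r = 0.117, 0.152 and 0.262), each above 0.1. The same-numbered pairs with Control were not above 0.1. Libraries with different numbers were not compared, so that whether the title suffix pairs libraries is not settled. The labels do not say what it stands for. Replicates of each group differed beyond sampling noise. At these depths a gene with 0 counts in a library may hold up to 3 counts, by counting error alone.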

Additional observations from a re-analysis of the deposited data

Results flagged for a closer look

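The response to MSA2 differed between BMDC and B cells for 3 genes that passed the filter on low counts in both cell types, by a test of the difference itself in a fit of all 17 libraries. Over all genes tested 16.3% were called more positive in BMDC and 20.7% more negative. Tnfsf13b and Tnfsf13 passed in B cells only through the MSA2 libraries, where they were high, so nothing is drawn from their count. Markers of other cells rose in those same libraries, and their part was not tested. Each value is the log2 fold change with MSA2 against Control in BMDC minus that in B cells. Tnfsf13b differed by -2.47 ± 0.32 (adjusted p = 6.43e-06), with a rise in both cell types. Tnfsf13 differed by -5.98 ± 0.39 (adjusted p = 6.92e-10), with a rise in B cells and no call in BMDC. Tnfrsf13b differed by 0.99 ± 0.14 (adjusted p = 2.14e-05), with a rise in BMDC and a fall in B cells, both in CPM. Relative to the 12 B cell markers, Tnfrsf13b rose with MSA2 in B cells (log2 difference 0.36, exact permutation p = 0.1, the smallest possible). Its direction in B cells therefore depends on the scale. For Tnfrsf17, which was left untested in BMDC and entered the fit of both cell types through the B cells, nothing is drawn from the value of -5.05 ± 1.66 (adjusted p = 0.0242), which rests on 2 counts with MSA2 and 4 in Control in BMDC. Without BMDC Control replicate 1, which held all 4 of those Control counts, the difference in Tnfrsf17 was -1.23, with an adjusted p of 0.855.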

How the results depend on the processing

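With MSA2 against Control in B cells, and with the combination against MSA2, the calls and directions of all 5 genes held in every alternative run. For the combination against Control in B cells, 171 genes were called, against 359 without a filter, 391 in DESeq2, 260 with the replicate block and 91 to 220 when each library was left out. Tnfrsf13c in that comparison (-0.52) passed at -0.51 without a filter, -0.51 in DESeq2 and -0.52 with the block, and ranged from -0.63 to -0.43 over left-out libraries. In BMDC the combination against Control called 843 to 2177 genes over left-out libraries, against 1883. Tnfrsf13b there (0.32) passed at 0.31 without a filter, 0.31 in DESeq2, 0.36 with the block and 0.31 in the compared groups alone, and ranged from 0.24 to 0.39. Tnfsf13 with MSA2 against Control in BMDC ranged from -0.25 to -0.037. The combination against MSA2 in BMDC called 561 genes without a filter, 162 in DESeq2, 13 in the compared groups alone and 0 to 99 over left-out libraries, with 99 without MSA2 replicate 2. The difference in response to the combination called 539 genes, 818 without a filter, 888 in DESeq2 and 246 to 654 over left-out libraries. Tnfrsf17 ranged from -6.16 to -1.67 between the Control groups and from -5.70 to -1.23 in the difference in response to MSA2. Relative to B cell markers, in the combination against Control, Tnfsf13 ranged from -0.16 to 1.71 (0.98 with all libraries, reversed without Control replicate 2) and Tnfrsf17 from -0.89 to 0.063 (-0.36 with all libraries, reversed to 0.063 without Control replicate 3 and 0.04 without combination replicate 2). The causes were not tested. Where a left-out library leaves the BMDC combination with 1 sample, that sample is assumed to vary like the other groups.

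Libraries with the same title suffix did not deviate together throughout. In B cells, r was above 0.1 in 3 of 9 pairs, all 3 between the combination and MSA2, and in BMDC in 1 of 7 pairs (-0.11 to 0.13). In the combination against MSA2 in B cells the replicate block kept all 5 genes on their side of the threshold. Beyond the values given above, the replicate block changed no other call on the 5 genes. Depth limits Tnfrsf13c and Tnfrsf17 in BMDC, and both ligands and Tnfrsf17 in Control and combination B cells, to at most 15 counts per library.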
